A study of Homo sapiens with 3 samples.

Results

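The ADAM and ADAMTS genes encode metalloproteinases that work at the cell surface and in the matrix, and they were taken as every gene whose symbol is ADAM or ADAMTS followed by a number, on probe sets with 1 symbol. This gave 38 genes of 18132 measured, 20 of them ADAM and 18 ADAMTS genes, on 98 probe sets. One member, ADAM3A, is a pseudogene in the RefSeq table, and the other members are protein-coding. ADAMTSL genes, ADAMDEC1 and antisense RNAs were not counted as members.

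KYSE180 is a human oesophageal squamous cell carcinoma line. Expression was measured on 3 oligonucleotide arrays, 1 for each group. The first group was KYSE180 transfected with the LZRS_HOTAIR vector using Polyfect, which carries the long non-coding RNA HOTAIR. In the second, KYSE180 received a mixture of 2 Stealth siRNAs against HOTAIR, at 100 pmol, with Lipofectamine2000, and RNA of transfected cells was taken at 48 h. The third was KYSE180 labelled as control. The series' design names a negative control siRNA, but the control sample's own labels do not say whether it received one or any reagent. The transfection reagent and the nucleic acid delivered (plasmid or siRNA) differ between the arms along with HOTAIR, and these cannot be told apart. The source name of the siRNA sample speaks of a HOTAIR cell line, while its title and cell line field give KYSE180. HOTAIR itself had 0 named probe sets, so its level could not serve as a check of the labels.

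ADAM proteins are membrane-anchored. Those with a working zinc-binding site cut the outer part of other membrane proteins, releasing growth factors, cytokines, Notch and adhesion molecules, whereas the others lack that site and act in adhesion. ADAMTS proteins are secreted, carry thrombospondin repeats and cut matrix proteoglycans, procollagens, COMP and von Willebrand factor. In squamous epithelium and its tumours, ADAM9, ADAM10 and ADAM17 are known for shedding ligands of the EGF receptor and E-cadherin.

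Among the 3 arrays, the median log2 signals lay between 5.23 and 5.27. Markers of squamous epithelium were all above the median of probe sets (6 of 6 measured), while 0 of 6 fibroblast, 0 of 3 leukocyte and 0 of 4 endothelial markers were. With 1 array per group no difference could be checked against replicates, and p-values are not reported. A difference of 2-fold, or 1 on the log2 scale, was the threshold for calling a gene higher or lower. Probe sets of one gene spread around their gene's mean with a pooled SD (log2, 8320 genes) of 0.44 in vector minus control, 0.45 in siRNA minus control and 0.26 between the arms. This is a spread within arrays, and leaves out the spread between cultures. The median of all 10917 genes kept by the filter was -0.18 in vector minus control, -0.17 in siRNA minus control and 0.01 in vector minus siRNA. Cyclic loess moved the first pair to -0.03 and 0.02, so a member is also described relative to these medians where its direction turns.

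The promoters of 3 members from the sheddase group are shown here from RefSeq sequence on GRCh38.p14. ADAM9 and ADAMTS5, the members past 2-fold below, had no matched promoter sequence. ADAM10 and ADAM17 were higher and ADAM15 was lower than control in both arms. Each window of 300 bases runs 5′ to 3′ from 250 bases before the gene's start to 50 after it. Capitals mark GGGCGG or its reverse complement CCGCCC, the GC box that Sp1-type factors bind. The ADAM10 window is chr15:58749658-58749957, minus strand, the ADAM17 window is chr2:9555781-9556080, minus strand, and the ADAM15 window is chr1:155051066-155051365, plus strand.
ADAM10: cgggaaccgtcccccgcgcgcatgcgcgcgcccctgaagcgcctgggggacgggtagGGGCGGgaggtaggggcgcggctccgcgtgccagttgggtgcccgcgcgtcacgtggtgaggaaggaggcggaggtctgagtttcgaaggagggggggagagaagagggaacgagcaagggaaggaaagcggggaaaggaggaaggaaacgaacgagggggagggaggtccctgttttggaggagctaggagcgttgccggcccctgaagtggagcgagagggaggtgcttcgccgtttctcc
ADAM17: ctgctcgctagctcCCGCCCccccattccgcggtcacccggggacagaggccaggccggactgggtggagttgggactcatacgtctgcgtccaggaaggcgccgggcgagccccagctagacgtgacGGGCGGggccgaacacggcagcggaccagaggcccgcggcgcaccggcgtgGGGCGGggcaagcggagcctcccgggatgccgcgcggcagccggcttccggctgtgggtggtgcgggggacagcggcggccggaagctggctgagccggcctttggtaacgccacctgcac
ADAM15: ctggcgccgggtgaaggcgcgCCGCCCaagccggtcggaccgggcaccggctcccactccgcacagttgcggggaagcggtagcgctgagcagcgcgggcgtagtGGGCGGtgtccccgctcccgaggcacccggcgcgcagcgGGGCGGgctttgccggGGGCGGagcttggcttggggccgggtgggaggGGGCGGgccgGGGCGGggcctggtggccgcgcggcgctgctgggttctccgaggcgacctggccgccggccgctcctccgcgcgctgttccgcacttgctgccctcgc

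Promoter sequences were matched for 23 of the 38 members. The ADAM10 window held 1 GC box, at base -193 from the start, the ADAM17 window held 3 and the ADAM15 window held 6. The windows of ADAM8 and ADAM23, not shown, held 3 and 2. ADAM8 was lower than control in both arms. Whether the number of boxes goes with the direction of a difference was not tested. A GC box was present in 17 of 23 members, against 44.6% of 27305 promoters. Among the 5 members with a promoter that were above the signal filter it was present in 5, and among the 18 below the filter in 12. The core of the interferon-stimulated response element was in 0 of 23 members and 3.65% of all promoters. The AP-1 motif TGANTCA was in 1 of 23 and 7.76%, the TATA box TATAAA in 2 of 23 and 12.0% of all, and CCAAT in 7 of 23 and 35.7%. Both strands were searched, and none of the marked GC boxes overlapped another motif in the windows shown. The promoters of the 5 members above the filter had a median GC content of 74.7% (lowest 68.0%, highest 79.3%), the 18 below it 67.3%, and all promoters 58.3%. These shares describe letters in the windows, and binding was not measured.

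Only a minority of the family passed the signal filter in KYSE180. Each gene was read from the probe set that was brightest on average, and it passed the filter if this average reached 5.28, the midpoint of the averages of all probe sets. The filter kept 9 members, 8 ADAM genes and 1 ADAMTS gene, and left 29 below it. Of all 18132 genes measured, it kept 10917. The 9 were the proteases ADAM8, ADAM9, ADAM10, ADAM15, ADAM17 and ADAM33, the ADAM genes without a catalytic site ADAM11 and ADAM23, and ADAMTS1. Of the 29 below the filter, 24 were under 5.28 on every array, and ADAM22, ADAM28, ADAMTS2, ADAMTS5 and ADAMTS13 exceeded it on at least 1 array. Bulk RNA cannot tell fewer cells that express a gene from less RNA per cell.

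ADAM9 was the single member of the 9 that passed 2-fold, and it was higher than control in both arms. ADAM9 is a sheddase of broad range that also binds integrins. Its log2 signal was 10.55 in vector cells and 10.68 in siRNA cells, against 9.30 in control cells. Both transfected arrays lay well above the control array and close to each other. Vector cells were 2.39-fold above control (log2 1.26) and siRNA cells 2.60-fold (log2 1.38), while vector minus siRNA was -0.12. All 4 probe sets of ADAM9 were above 0 in both comparisons with control, and 3 of 4 passed 2-fold for the vector and 2 of 4 for the siRNAs. The 2 that passed for the siRNAs gave similar signals on each array and may share probes, so they are not independent. The other probe sets were at 0.43 and 0.86 in siRNA minus control. One of the similar pair is the representative probe set, which is open to cross-hybridisation. The other of the pair also passed 2-fold in both comparisons. The mean over the 4 probe sets was 1.09 ± 0.30 for vector minus control and 0.97 ± 0.42 for siRNA minus control (SD over 4 probe sets of the same arrays). The mean over probe sets thus missed 2-fold for the siRNAs. For comparison, of all genes kept, 15.2% passed 2-fold upward and 2.05% downward in vector minus control, and 14.9% upward and 1.85% downward in siRNA minus control. One of 9 members higher and 0 of 9 lower, in each of these comparisons, is close to those shares.

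**Figure D1:**
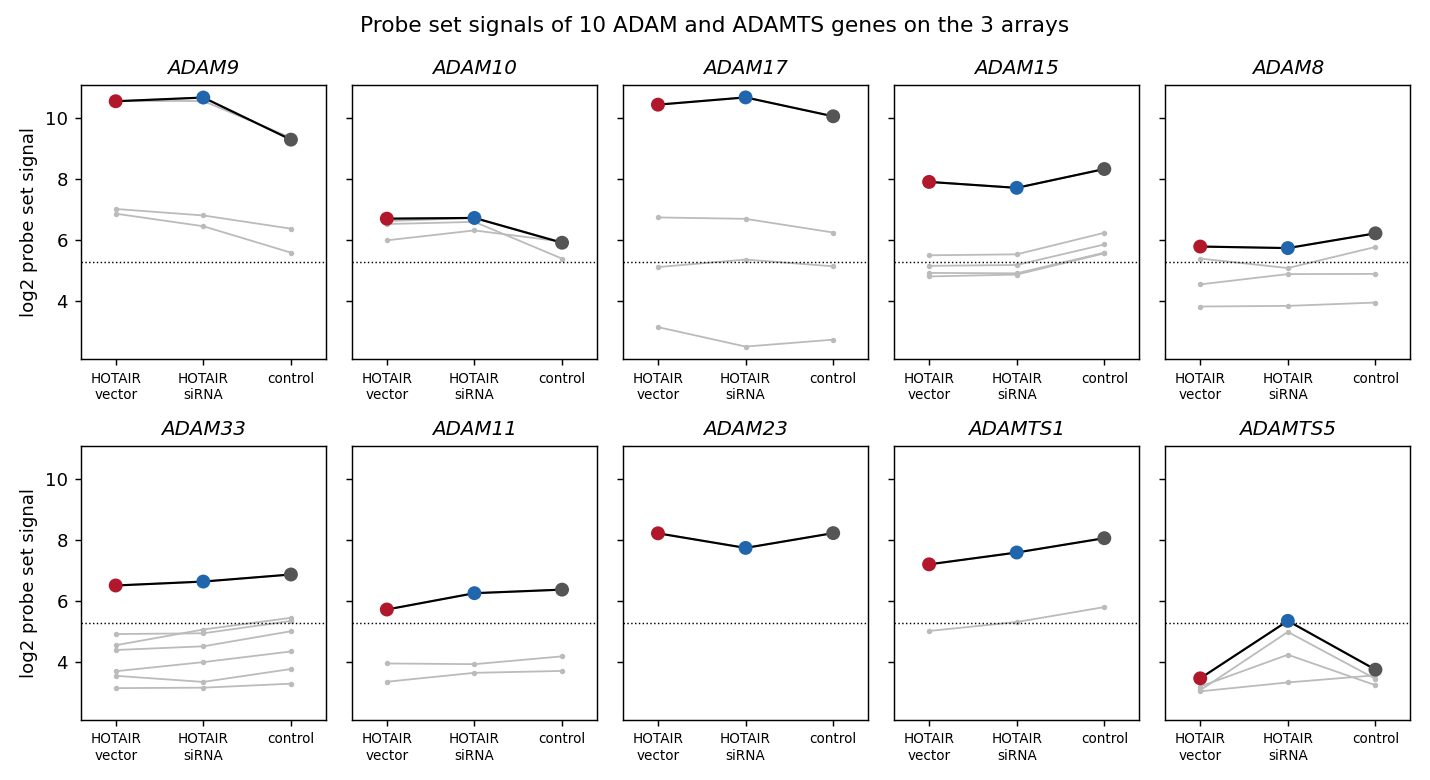
Log2 probe set signals (y axis) of the 10 ADAM and ADAMTS genes described by array, on the HOTAIR vector, HOTAIR siRNA and control arrays (x axis). Coloured points joined in black are the probe set that represents the gene, grey lines its other probe sets, and the dotted line the filter at 5.28. ADAM9 is at 10.55 and 10.68 on the transfected arrays and 9.30 on the control array, and ADAMTS5 reaches 5.35 on the siRNA array.

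ADAM10 and ADAM17 lay on the same side of control as ADAM9 without reaching 2-fold. ADAM10 cuts Notch receptors, E-cadherin and the amyloid precursor protein. Its log2 signal was 6.71 in vector cells and 6.73 in siRNA cells, against 5.92 in control cells, a difference of 0.79 and 0.81 with both transfected arrays above control. The 4 probe sets of ADAM10 were all above 0 in both comparisons, and 1 of 4 passed 2-fold in each. They were at 0.66 ± 0.46 for the vector and 0.80 ± 0.34 for the siRNAs (mean ± SD over probe sets). The dimmest was only at 0.04 in vector minus control. The representative probe set is open to cross-hybridisation. Another probe set gave similar signals on each array, at 0.70 and 0.80 against control, and the pair may share probes and is not independent. After cyclic loess ADAM10 passed 2-fold in both, at 1.05 and 1.10. ADAM17, the TNF-converting enzyme, also releases amphiregulin and TGF-alpha. It had 10.44 in vector cells, 10.68 in siRNA cells and 10.06 in control cells on its representative probe set. The differences of 0.38 and 0.62 place both transfected arrays above control. Of 4 ADAM17 probe sets 3 were above 0 in each comparison, with means of 0.32 ± 0.23 and 0.27 ± 0.37. The siRNA mean is smaller than its spread over probe sets.

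The other catalytic ADAM genes above the filter lay below control. ADAM15 encodes a protease with an integrin-binding motif that is found at epithelial junctions. Its signal was 7.91 in vector cells and 7.72 in siRNA cells, against 8.34 in control cells. All 6 ADAM15 probe sets were lower than control in both arms, at -0.62 ± 0.16 for the vector and -0.66 ± 0.04 for the siRNAs. Several of these probe sets gave nearly the same values and may share probes, so they are not independent. ADAM8, best known from leukocytes and also found in tumours, had 5.80 in vector cells, 5.75 in siRNA cells and 6.23 in control cells. Its 4 probe sets were all below 0 in both comparisons, at -0.32 ± 0.13 and -0.32 ± 0.32. ADAM33, known as an asthma susceptibility gene, had 6.51, 6.64 and 6.87 in the same order of arrays. All 7 ADAM33 probe sets were below 0 in both comparisons, with means of -0.47 ± 0.26 and -0.34 ± 0.12, but after cyclic loess the siRNA difference of its representative probe set was 0.03. That probe set is one open to cross-hybridisation, and on the brightest of the others, itself below the filter level, ADAM33 was at -0.90 in vector minus control, -0.38 in siRNA minus control and -0.52 in vector minus siRNA. ADAM8 and ADAM15 remained below control in both arms under each scaling and choice of probe sets run.

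Of the ADAM genes without a catalytic site, 2 were above the filter, and 0 of them passed 2-fold in any comparison. Of all genes kept, 15.2% in vector cells and 14.9% in siRNA cells were 2-fold higher than control. A count of 0 among 2 genes does not set this group apart. ADAM11, known from the nervous system, had 5.72 in vector cells, 6.26 in siRNA cells and 6.38 in control cells, so the vector array was the lowest. Against control the vector array was at -0.65 and the siRNA array at -0.12, with -0.54 between the arms. Over its 3 probe sets the means were -0.41 ± 0.22 and -0.14 ± 0.10 against control and -0.27 ± 0.28 between the arms, where 1 probe set was at 0.02. The siRNA difference of the representative probe set turned to 0.18 after cyclic loess, and to 0.05 relative to the median of all genes kept. ADAM23, which binds the secreted protein LGI1, was on 1 probe set with 8.22 in vector, 7.74 in siRNA and 8.23 in control cells. The siRNA array was the low one, by -0.48 against control, and vector minus siRNA was 0.48. Vector minus control was -0.01, or 0.18 relative to the median of all genes kept.

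ADAMTS1 was the ADAMTS gene with signal above the filter, and it was lower in both arms. ADAMTS1 cuts the proteoglycans aggrecan and versican and binds VEGF. It had 7.20 in vector cells and 7.59 in siRNA cells, against 8.06 in control cells, so the 3 arrays were ordered control, siRNA, vector from high to low. Both probe sets kept that order. Vector minus control was -0.86 on the representative probe set (-0.82 ± 0.05 over 2 probe sets), siRNA minus control -0.47 (-0.48 ± 0.02) and vector minus siRNA -0.39 (-0.34 ± 0.07). ADAMTS1 thus missed 2-fold in every comparison on the deposited values, and passed it for vector minus control, at -1.06, after repeated quantile normalization.

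ADAMTS5 was the member with the largest difference in the family, and it separated the siRNA array from both others. ADAMTS5 is the main aggrecanase of cartilage in mice. Its representative probe set had 3.47 in vector cells, 5.35 in siRNA cells and 3.76 in control cells. The siRNA signal was above the filter level, while the vector signal lay under the lower quartile of its array (3.58) and the control signal was close to that quartile (3.72). The difference was -1.88 for vector minus siRNA and 1.60 for siRNA minus control, whose size is uncertain because the low values are near background, and -0.28 for vector minus control. Of 4 ADAMTS5 probe sets, 3 passed 2-fold downward in vector minus siRNA and the other one was at -0.29, with a mean of -1.28 ± 0.77. For siRNA minus control 2 of 4 passed 2-fold, another fell just short of it, and the last was at -0.23, with a mean of 0.97 ± 0.85. With a mean of 4.19 ADAMTS5 was below the filter, and it passed only an alternative filter on the highest array, through the array where it is high. Among the 14 members whose highest array was at or above 5.28, ADAMTS5 and ADAM9 passed 2-fold upward in siRNA minus control, against 14.9% of all genes under that filter, and ADAMTS5 passed it downward in vector minus siRNA, against 2.08%.

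Between the arms, 0 of the 9 members above the filter passed 2-fold in either direction, against 1.73% of all genes kept higher and 1.85% lower. The differences of these 9 in vector minus siRNA ran from -0.54 to 0.48, with a median of -0.12. Of the 9, 6 were below 0, against 47.9% of all genes kept. The median of the 9 was -0.36 in vector minus control, with 6 below 0 and a range from -0.86 to 1.26. In siRNA minus control it was -0.23, again with 6 below 0, and the range was -0.62 to 1.38. Of all genes kept, 59.2% and 58.8% were below 0 in these 2 comparisons, which share the control array. The control array was the highest for 6 of the 9 members and the siRNA array for 3, while over all genes kept it was the control array for 53.5%, the siRNA array for 21.7% and the vector array for 24.8%.

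**Figure D2:**
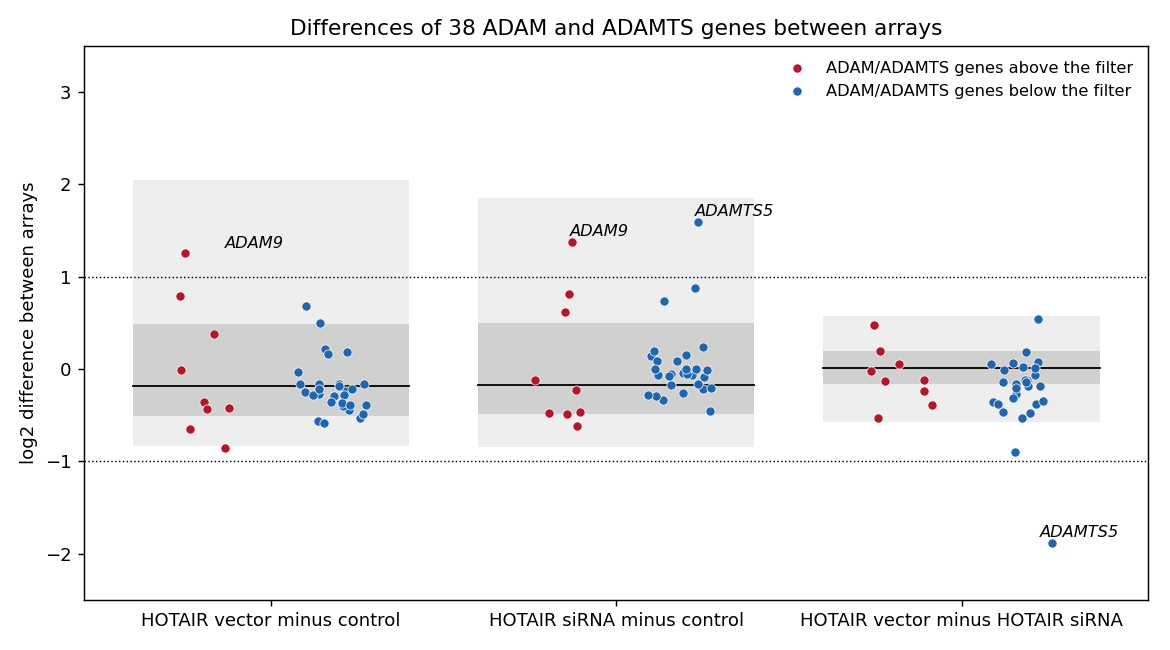
Log2 differences (y axis) of the 38 ADAM and ADAMTS genes in the 3 comparisons (x axis), with red points for the 9 genes above the signal filter and blue points for the 29 below it. Dark grey boxes span the middle 50% of all 10917 genes kept, light grey boxes the 5th to 95th percentile, black lines their median, and dotted lines mark 2-fold. ADAM9 at 1.26 and 1.38 and ADAMTS5 at 1.60 and -1.88 are the points past 2-fold.

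The 29 members below the filter carried little that can be read by array. Their differences ran from -0.59 to 0.68 in vector minus control, from -0.45 to 1.60 in siRNA minus control and from -1.88 to 0.54 in vector minus siRNA. Of them, 24 were below 0 in vector minus control, with a median of -0.25. Of the 7215 genes of the whole array below the filter, 78.7% were below 0, and their median was also -0.25. The vector array was the lowest for 20 of the 29, against 52.7% of those 7215 genes. The proteoglycan-cleaving ADAMTS4, ADAMTS8, ADAMTS9, ADAMTS15 and ADAMTS20 were in this set, with the procollagen peptidases ADAMTS2, ADAMTS3 and ADAMTS14, the COMP-cleaving ADAMTS12, and ADAMTS6, ADAMTS10, ADAMTS16, ADAMTS17, ADAMTS18 and ADAMTS19. It also held ADAM12, ADAM19, ADAM20, ADAM21, ADAM28 and ADAM30, and the non-catalytic ADAM2, ADAM18, ADAM22, ADAM29 and ADAM32, with the pseudogene ADAM3A. ADAMTS14 had the same value to the precision of the file in siRNA and control cells, as did 42 genes of the array in all.

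A few dim probe sets and genes are named here after their values were seen. ADAMTS13, the protease of von Willebrand factor, had 4.97 in vector cells, 5.35 in siRNA cells and 4.47 in control cells, and its other probe set was lower than control in both arms, at -0.33 and -0.25. ADAM22, a receptor of LGI1, had 4.40, 5.30 and 4.56 in the same order, so its siRNA array was the high one, at 0.74 above control. Over its 4 probe sets ADAM22 averaged 0.27 ± 0.63 there, with 1 at -0.65. ADAM12 and ADAM19 each had 1 probe set of several that passed 2-fold. For ADAM12 that probe set had 4.47 in vector, 4.76 in siRNA and 3.31 in control cells, while the mean over its 5 probe sets was 0.26 ± 0.66 for vector minus control. For ADAM19 it had 3.85 in vector, 5.39 in siRNA and 4.67 in control cells, and vector minus siRNA was -1.54 there and between -0.35 and -0.12 on the other 3 probe sets. Over all 98 member probe sets, 5 passed 2-fold for vector minus control, 3 of ADAM9 and 1 each of ADAM10 and ADAM12, against 10.2% of all probe sets with 1 symbol. For siRNA minus control 6 passed it, 2 each of ADAM9 and ADAMTS5 and 1 each of ADAM10 and ADAM12, against 9.53%. Downward, 4 passed it for vector minus siRNA, 3 of ADAMTS5 and 1 of ADAM19, against 1.09%. All 4 had a mean below the filter level. Probe sets of one gene on the same arrays are not independent, so these counts do not set the members apart. The other directions held 0 member probe sets, against 1.1% lower in vector minus control, 1.11% lower in siRNA minus control and 1.24% higher in vector minus siRNA.

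Genes that control ADAM and ADAMTS activity were set beside the proteases. TIMP proteins inhibit some of these enzymes, each TIMP a different set, and enzyme activity was not measured here. TIMP2 had 7.70 in vector cells, 9.33 in siRNA cells and 8.61 in control cells, which made vector minus siRNA -1.63 and siRNA the high array. Without probe sets open to cross-hybridisation vector minus siRNA was -0.90, siRNA minus control turned to -0.24, and control was the high array. TIMP1 was not 2-fold apart in any comparison, and TIMP3, which inhibits ADAM17, TIMP4 and the membrane-bound RECK were below the filter. Of 13 partners that mature or carry ADAM proteins, all above the filter, 0 were 2-fold higher than control in either arm. One of the 13, TSPAN17, a tetraspanin that escorts ADAM10, was 2-fold lower in siRNA cells. It had 7.55 in vector, 7.16 in siRNA and 8.50 in control cells, on 1 probe set. Of all genes kept, 15.2% were 2-fold higher in vector cells and 14.9% in siRNA cells, and 1.85% were 2-fold lower in siRNA cells. Counts of 0 and 1 among 13 genes do not set the list apart. The median of the 13 was -0.42 in both comparisons with control, below the medians of all genes kept, and 11 of 13 were below 0 in each, against 59.2% and 58.8% of all genes kept. RHBDF2, which encodes the ADAM17 carrier iRhom2, was at -0.94 and -0.89, or -0.61 and -0.63 over its probe sets. The convertases that remove prodomains did not all lie on one side. FURIN was at -0.86 and -0.95 and PCSK7 at -0.28 and -0.70, each on a single probe set open to cross-hybridisation. PCSK5 was at 0.58 and 0.53, or 0.15 and 0.35 over its probe sets. PCSK6 was at 0.04 and 0.03, or -0.23 and -0.16 over its probe sets. These partners other than TSPAN17 were named after their values were seen.

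Among substrates of the ADAM sheddases, single adhesion and receptor genes passed 2-fold. Above the filter were 22 adhesion, Notch and receptor genes. In each arm 2 of them passed 2-fold upward against control and 0 downward, and 2 passed it downward in vector minus siRNA. The shares of all genes kept were 15.2% and 14.9% upward against control and 1.85% downward between the arms, and a count of 2 genes does not set the list apart. The higher ones were ALCAM, an adhesion molecule cut by ADAM17, with 10.66 in vector, 9.97 in siRNA and 8.00 in control cells, and the receptor gene MET, with 9.57, 9.35 and 8.27. Averaged over its probe sets, ALCAM was at 1.81 for vector minus control, still past 2-fold, and 0.86 for siRNA minus control. MET was then at 0.40 and 0.31, short of 2-fold in both. The lower ones were the Notch ligand gene DLL1 (-1.04, or -0.49 over its probe sets) and the N-cadherin gene CDH2 (-1.40, or -1.54 over its probe sets), whose product ADAM10 cuts. Of 3 EGF receptor ligand genes above the filter 0 passed 2-fold, with HBEGF at 0.57 and NRG1 at 0.19 for vector minus siRNA.

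Of 16 ADAMTS substrate genes measured, 3 were above the filter, ACAN, BGN and COL5A1. COL5A1, a fibrillar collagen chain, had 6.15 in vector cells, 8.04 in siRNA cells and 7.16 in control cells, which put the vector array below both others (vector minus siRNA -1.89). Versican, the other well-known proteoglycan substrate, was below the filter. Of the ADAMTS-like genes, which share ancillary domains but no protease, THSD4 had 6.42 in vector, 7.72 in siRNA and 6.94 in control cells, and vector minus siRNA was -1.30. ADAMTS5, TIMP2, COL5A1, CDH2, DLL1 and THSD4 each had the siRNA array highest and the vector array lowest on the representative probe set. TIMP2 lost that order without probe sets open to cross-hybridisation. DLL1 lost it with the mean over probe sets, where siRNA minus control was -0.15, and THSD4 had only 1 probe set. These genes were picked by their difference, and nothing about a shared pattern was tested.

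**Figure D3:**
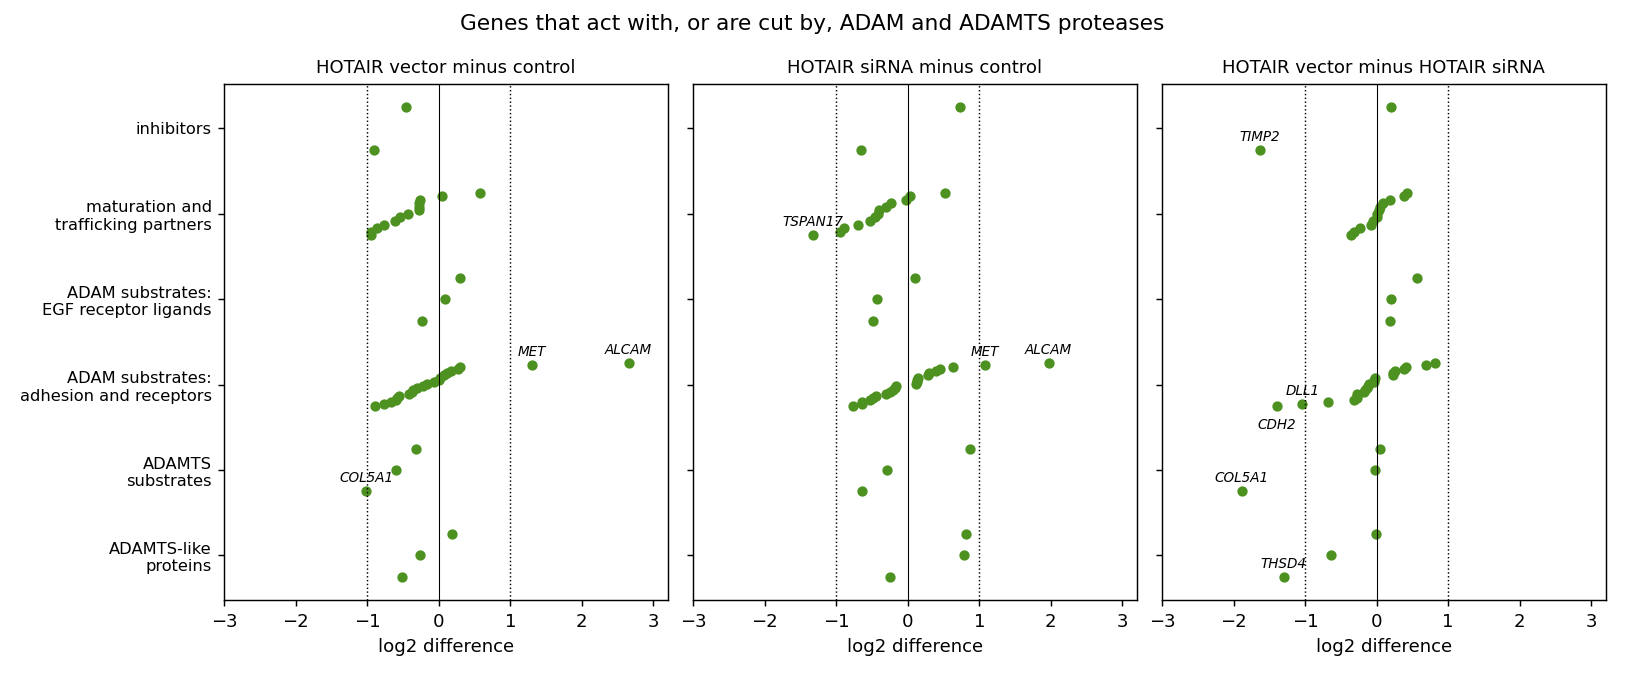
Log2 differences (x axis) of the genes above the filter on 6 lists of inhibitors, partners, substrates and relatives of ADAM and ADAMTS proteases (rows), 1 panel per comparison. Points are genes, dotted lines mark 2-fold, and genes past it are named. The 13 partners centre at -0.42 in both comparisons with control.

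Both the choice of probe set and the scaling moved the values of the members described above, as the plot by choice shows for 5 of them. ADAM9 ranged from 1.09 to 1.44 in vector minus control and from 0.97 to 1.55 in siRNA minus control over the 6 settings, including the reported one. ADAMTS5 ranged from -1.90 to -1.28 in vector minus siRNA, past 2-fold in all 6, and from 0.97 to 1.80 in siRNA minus control, where the mean over probe sets did not reach 2-fold. ADAM10 ranged from 0.66 to 1.05 and ADAM17 from 0.31 to 0.56 in vector minus control, above 0 in all 6.

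**Figure D4:**
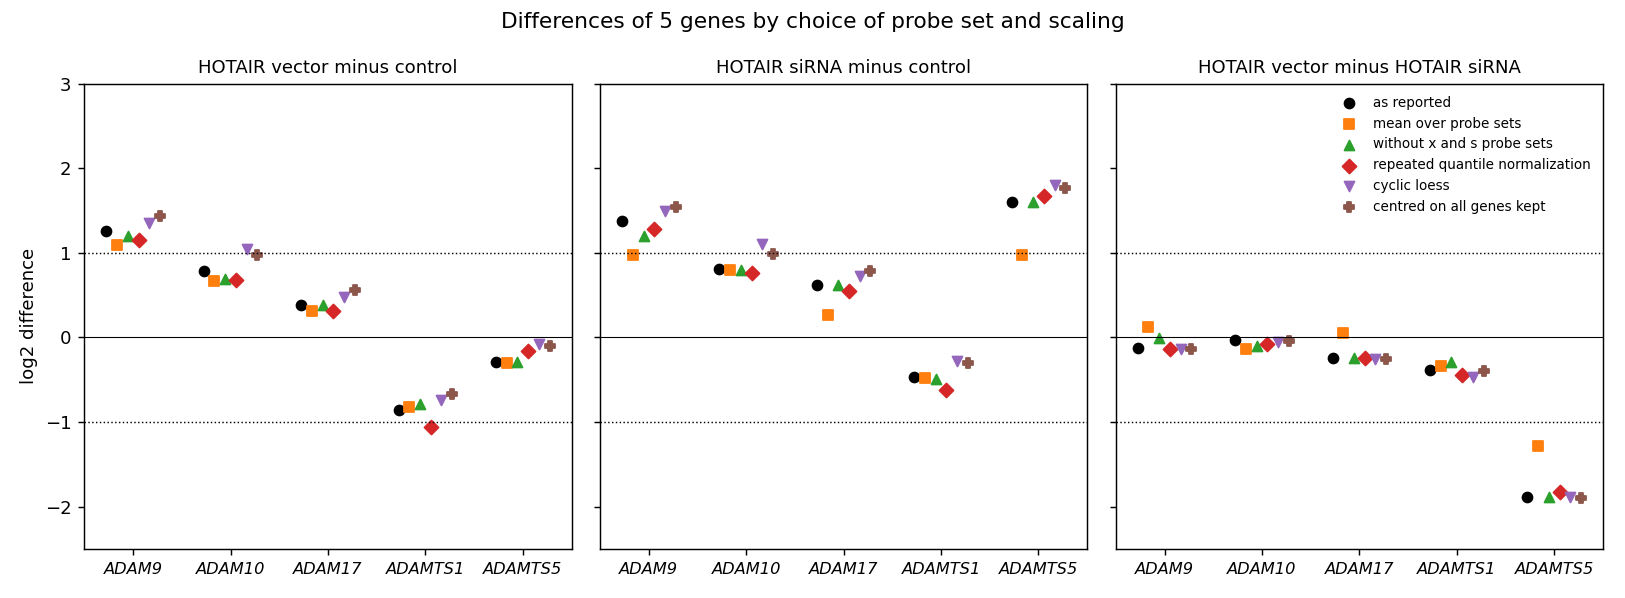
Log2 differences (y axis) of 5 genes (x axis) in the 3 comparisons (panels) under 6 choices of probe set and scaling (symbols), with dotted lines at 2-fold. ADAM9 stays above 0 in both comparisons with control, and ADAMTS5 lies between -1.90 and -1.28 in vector minus siRNA.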

How the data were processed

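Total RNA was labelled with biotin by a 3' IVT kit, per the labels' protocols, and hybridised to oligonucleotide arrays, 1 per group. The authors deposited log2 signals per probe set. RMA is the tool named in the submitters' processing notes, whose version and settings are not given there, and the log2 scale was read from the range of the values. RMA compresses differences near background, which understates folds of dim genes.

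Of 49293 probe sets, a platform annotation table gave 1 symbol to 44988, several to 1832 and none to 2473. By Entrez identifier, 38 of 38 members matched the RefSeq table. The brightest probe set on average stood for its gene, and genes averaging at least 5.28, the midpoint of all probe sets, were kept (10917 of 18132). Differences between arrays were called at 2-fold, with no test. Named with values were members kept, and others at least 2-fold apart with 1 array above the filter. On the related lists, genes kept and past 2-fold were named, or else the 2 most different, with a few others singled out after their values were seen. The members and lists were chosen with earlier results of these data known.

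Alternatives were folds of 1.5 and 3, other filters (none, the 75th percentile, the highest array), the mean over probe sets, leaving out probe sets ending in _x_at or _s_at, which can cross-hybridise, repeated quantile normalization, cyclic loess (span 0.4, 3 iterations) and centring on all genes kept. The choice of probe set, the filter and the 2-fold call were run on simulated arrays with changes well past 2-fold. Their noise was smaller than the spread between probe sets here, so the run checks the code only. The scalings were not simulated. Python 3.11.15, numpy 2.4.6, pandas 2.3.3, matplotlib 3.10.9, R 4.3.3 and limma 3.58.1 (normalization only) were used.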

Additional observations from a re-analysis of the deposited data

How the results depend on the processing

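With so few members above the filter, counts past 2-fold moved by single genes. In vector minus control, the count of members higher was 1 as reported, 2 at 1.5-fold and after cyclic loess (ADAM9 and ADAM10), and 0 at 3-fold. The count lower was 0 as reported, 2 at 1.5-fold (ADAM11 and ADAMTS1) and 1 after repeated quantile normalization (ADAMTS1). Of all genes kept, 22.9% were higher and 19.4% lower at 1.5-fold, and 8.15% were higher at 3-fold. After cyclic loess 17.4% were higher, and after repeated quantile normalization 4.74% were lower. In siRNA minus control, the count higher was 1 as reported, 3 at 1.5-fold (ADAM9, ADAM10 and ADAM17), 0 at 3-fold, 2 with no filter or the filter on the highest array (ADAM9 and ADAMTS5), 0 with the mean over probe sets and 2 after cyclic loess (ADAM9 and ADAM10). The count lower was 1 at 1.5-fold (ADAM15). Of all genes kept, 22.8% were higher and 18% lower at 1.5-fold, and 7.25% were higher at 3-fold. The share higher was 9.81% with no filter and 14.9% with the filter on the highest array. It was 11.3% with the mean over probe sets and 18.2% after cyclic loess. In vector minus siRNA, the count lower was 1 with no filter or the filter on the highest array (ADAMTS5), and 0 otherwise. The shares of all genes lower under those filters were 1.46% and 2.08%. Counts this small do not set the members apart from all genes. The median of the members kept turned from -0.36 to 0.15 in vector minus control and from -0.12 to 0.049 in vector minus siRNA with the mean over probe sets, where 6 members were kept, and from -0.23 to 0.033 in siRNA minus control after cyclic loess. These medians have no fixed direction, and the cause was not tested. Of 150 values of single genes under alternatives, 143 moved by less than the pooled SD between probe sets and 7 by more, and none that was past 2-fold changed sign. Part of the 143 could not move by more. Centring shifts every gene by the same amount, which is smaller than that SD in each comparison. Leaving out probe sets open to cross-hybridisation returned the same probe set for ADAM11, ADAM15, ADAM17, ADAM23 and ADAMTS5. ADAM23 also had only 1 probe set to average, so the 143 is no measure of stability. No paired analysis was possible because each group had 1 array and the result comes from no test. Signal over background limits ADAMTS5, ADAM12, ADAM19 and the other members below the filter, and the number of arrays limits every value.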
